A study of Mus musculus with 3 samples.

Results

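The transcripts encoded by the mitochondrial genome were followed as a single set through the cells of the mouse renal medulla, before and after ureteric obstruction. Their measure was the percentage of a cell's unique molecular identifiers (UMIs, 1 per captured molecule) that came from mitochondrial genes, deposited for each cell and called percent.mt here. The set was chosen by its place in the genome, not by its values. In the mm10 genome annotation (GENCODE vM21) it holds 13 protein-coding genes of the 21951 that are protein-coding, and the genes that entered percent.mt were not stated in the sources used here. Values were available for 181257 cells in 25 clusters, as a percentage of all UMIs in the cell and not gene by gene. Of these cells, 72868 had a percent.mt of 0.

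All mice were male BALB/c, and the labelled tissue was the kidney papilla, called the renal medulla in the methods. Healthy controls (4 pools, 78631 cells) were compared with mice taken 28 days (D28, 4 pools, 59132 cells) and 84 days (D84, 2 pools, 43494 cells) after reversible unilateral ureteric obstruction (R-UUO), in which 1 ureter was clamped and later released. By the methods, the mice were young adults at surgery, each pool held tissue of 3 or 4 animals, and in long-term R-UUO studies the opposite kidney was removed after the clamp was released. The controls are described as healthy, not as operated on, so the obstruction, the surgery and the loss of the other kidney cannot be told apart here. The tissue was flash-frozen, fixed and dissociated, and RNA was read with gene-specific probes (10x Flex). The replicate throughout was the pool.

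Mitochondrial DNA codes for core subunits of the respiratory chain, which passes electrons from complex I through complexes III and IV and drives the ATP synthase. Every nucleated cell type of the kidney carries this genome, in amounts that differ with its mitochondrial content. The proximal tubule and the thick ascending limb are packed with mitochondria that pay for sodium transport, whereas the poorly perfused inner medulla has little oxygen and its cells lean on glycolysis.

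By complex, the annotation assigned 7 of the 13 genes to complex I, 1 to complex III, 3 to complex IV and 2 to the ATP synthase, and their annotated lengths summed to 6361, 1144, 3013 and 885 bases. The genes lie so close together that some overlap, which is shown here with the pair of shortest genes to convey how compact the set is. The first, mt-Atp8 (ATP synthase), lies at chrM:7766-7969 on the plus strand of mm10, and the capitals mark the 43 bases it shares with mt-Atp6. The second, mt-Nd4l (complex I), lies at chrM:9877-10173 on the same strand, and the capitals mark the 7 bases it shares with mt-Nd4.
mt-Atp8: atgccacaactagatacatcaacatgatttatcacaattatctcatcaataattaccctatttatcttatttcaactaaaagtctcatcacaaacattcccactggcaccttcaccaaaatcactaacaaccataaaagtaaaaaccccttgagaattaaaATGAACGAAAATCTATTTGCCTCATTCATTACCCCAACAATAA
mt-Nd4l: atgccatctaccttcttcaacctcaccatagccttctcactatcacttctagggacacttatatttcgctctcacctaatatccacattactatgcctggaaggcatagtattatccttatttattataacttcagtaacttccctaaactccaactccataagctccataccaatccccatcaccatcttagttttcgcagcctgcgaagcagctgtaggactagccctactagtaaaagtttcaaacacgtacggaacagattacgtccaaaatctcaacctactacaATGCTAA

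Some features of the data bear on every value below. The median UMI count per cell was 1139 to 1578 in the control pools, 1566 to 3302 at D28, and 911 and 751 at D84. The authors had subtracted ambient RNA and removed cells with over 10% mitochondrial UMIs before depositing the table. The table still held 22 cells above 10% (9 in Control 1 and 13 in Control 2, the highest at 10.7%) and 23 cells under the stated minimum of 300 genes, and all were kept here. In 9 of the 10 pools percent.mt multiplied by the deposited UMI total gave whole molecules (within 0.001 UMI), so there percent.mt refers to the counts behind that total. In Control 1 the totals are fractional, and its values may come from counts that were corrected in another way. Whether the totals of the other pools are the corrected ones was not stated, and the part of the correction in the values at 0 was not tested. The pools of each condition shared droplet barcodes, so that condition and droplet run cannot be told apart. Clusters and their names were the authors' own. No marker gene was among the values used here, so the names were used as given and were not checked.

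In healthy medulla the set split the clusters into a few tubular populations with a high level and a broad base of others near 1% (the plot of control pools by cluster). The highest means were in PT-S2 (proximal tubule, second segment; 5.64% ± 0.323 SD, n = 2 pools), ISOM-TAL (thick ascending limb of the inner stripe of the outer medulla; 4.82% ± 0.481, n = 4) and PT-S3_b (proximal tubule of the last segment; 4.74%, n = 3). The collecting duct came next, with deepIM-CD (deep inner medullary collecting duct) at 4.09% and OM-CD_b (outer medullary collecting duct) at 3.71%. Uro (urothelium, the lining of the papilla and pelvis) stood at 2.81%, InjuredLOH (injured loop of Henle) at 2.71%, IC (intercalated cells, the acid-base cells of the duct) at 2.24% and IM-TL (inner medullary thin limb) at 2.09%. Values for PT-S2 came from 2 pools because Control 1 held 8 and Control 4 held 1 of its cells, and a cluster with fewer than 10 cells in a pool was given no value.

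**Figure D1:**
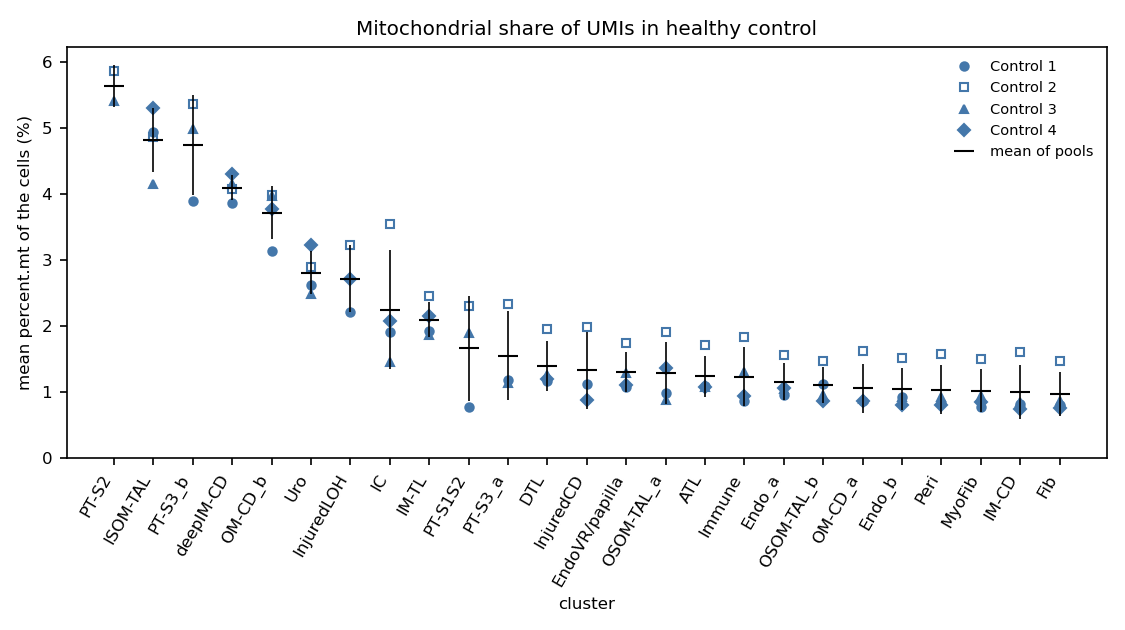
Mean percent.mt of each of the 25 clusters in the healthy control pools, as percent of a cell's UMIs; points are pools and bars are the mean over pools. PT-S2, ISOM-TAL and PT-S3_b lead at 5.64%, 4.82% and 4.74%, and 14 clusters lie below 1.5%.

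PT-S2 had 5.86% and 5.41% in Control 2 and 3. Pool by pool, ISOM-TAL had a mean percent.mt of 4.94%, 4.86%, 4.16% and 5.31% in Control 1 to 4. For deepIM-CD the values were 3.85%, 4.08%, 4.15% and 4.30%. OM-CD_b gave 3.13%, 3.99%, 3.96% and 3.77%. Of the 24 pairs of neighbours in the order, only PT-S2 and ISOM-TAL had pool ranges that stood apart. In 4 pairs the direction was the same in every pool compared. The order is therefore firm between the top and the base and loose between neighbours.

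At the base lay the stroma, the vessels and some of the tubule. Fib (fibroblasts) had the lowest mean at 0.970%, with 0.797%, 1.47%, 0.857% and 0.756% in the control pools, and IM-CD (inner medullary collecting duct) stood at 0.996%, with 0.806%, 1.61%, 0.837% and 0.732%. MyoFib (myofibroblasts) was at 1.01%, Peri (pericytes) at 1.03%, Endo_b and Endo_a (endothelium) at 1.04% and 1.15%, and Immune (immune cells) at 1.23%. Between this base and the high group stood PT-S1S2 at 1.66% and PT-S3_a at 1.55%, and just below 1.5% stood DTL (descending thin limb) at 1.39%, InjuredCD (injured collecting duct) at 1.32%, EndoVR/papilla (endothelium of the vasa recta and papilla) at 1.30% and ATL (ascending thin limb) at 1.23%. Clusters that share an anatomical name could lie far apart. ISOM-TAL was at 4.82% but OSOM-TAL_a and OSOM-TAL_b (thick ascending limb of the outer stripe) at 1.28% and 1.10%, deepIM-CD was at 4.09% but IM-CD at 0.996%, OM-CD_b was at 3.71% but OM-CD_a at 1.06%, and PT-S3_b was at 4.74% but PT-S3_a at 1.55%. Depth differed as well. In the control pools the median was 1077 to 1279 UMIs per cell in IM-CD and 989 to 1293 in OM-CD_a, against 5538 to 6997 in deepIM-CD. The part of depth in these gaps was not tested.

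Within a control pool, the highest of the 14 clusters under 1.5% lay 1.35 to 1.86 times above the lowest. The limit of 1.5% was set on the same values and bounds this spread. Control 2 was the highest pool in most of these clusters. The 11 clusters at or above 1.5% held 23.3% to 33.0% of a control pool's cells and 82.9% to 87.8% of its mitochondrial UMIs. Across the clusters of a control pool, Spearman's rho between mean percent.mt and the median UMI count per cell was 0.52 to 0.78, given as a description over clusters that share a library. Split by UMI count into 3 bins of equal size, the cells of deepIM-CD with low, middle and high counts had 3.18%, 4.10% and 4.28% in Control 1, 3.77%, 4.27% and 4.40% in Control 3 and 3.91%, 4.48% and 4.52% in Control 4, but 4.29%, 4.07% and 3.87% in Control 2. OM-CD_b rose from the low to the high bin in each control pool (2.24% to 4.10% in Control 1), whereas IM-CD fell (0.905% to 0.733% in Control 1).

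Each cluster of the control order was also set against the median cluster of its own pool, which removes the level that all clusters of a pool share. That median was taken over the clusters with a value in every pool. PT-S2, PT-S3_b, PT-S1S2, PT-S3_a, InjuredLOH, InjuredCD and EndoVR/papilla were set against it but did not enter it. By limma with Benjamini-Hochberg adjustment over 25 clusters, 7 clusters lay above that median in the controls (28% of those tested) and 0 below. The 7 were OM-CD_b, deepIM-CD, ISOM-TAL, PT-S3_b, IM-TL, IC and InjuredLOH. When the spread of each cluster alone was used instead of the spread shared between clusters, 2 were called, with a pseudocount of 0.001 in place of 0.01 percent 3, and with the mean over all cells of the pool as its level 0.

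After R-UUO the signal fell in every pool. The mean percent.mt over all cells was 1.44%, 2.42%, 1.64% and 1.78% in Control 1 to 4, 0.523%, 0.183%, 0.210% and 0.142% in D28 1 to 4, and 0.137% and 0.106% in D84 1 and 2. The lowest control pool was above the highest pool after R-UUO. The log2 difference was -2.89 for D28 against control (two-sided exact permutation p = 0.0286, the smallest that 4 against 4 pools can give) and -3.78 for D84 (exact permutation p = 0.0667, the smallest that 2 against 4 can give). In molecules, the mean over pools was 96.8 mitochondrial UMIs per cell in control, 16.4 at D28 and 4.38 at D84.

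Cells without any mitochondrial UMI became common in parallel. After thinning each cell to 500 UMIs, 4.38% of control cells, 77.4% of D28 cells and 84.6% of D84 cells had none (mean of pools), leaving out 55 to 125 shallower cells per control pool, 27 to 227 per D28 pool, and 946 and 3392 in D84 1 and 2. Unthinned, the share was 0.0164% to 1.18% in the control pools, 34.6% to 74.3% at D28, and 59.9% and 96.7% at D84. On the log2 odds of a cell being at 0, unthinned, D28 lay 9.50 above control (exact permutation p = 0.0286) and D84 11.4 above (exact permutation p = 0.0667). Fewer mitochondria in a cell, less RNA from each, and less of it reaching the deposited counts cannot be told apart in percent.mt.

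Cluster by cluster the loss was nearly general, and its size was not. In limma with adjustment over all 25 clusters, mean percent.mt was lower at D28 than in control in 22 clusters (88% of those tested) and at D84 in 24 (96%), and higher in 0. The median log2 difference over the 25 clusters was -4.30 at D28 and -5.60 at D84. In D84 2, where 17 clusters were at 0, the value of a cluster is the pseudocount of 0.01 percent, so that the size at D84 depends on it. The D84 median was -7.31 with a pseudocount of 0.001, -3.36 with 0.1 and -3.91 without D84 2, and the D28 median was -4.45 and -3.04 with these pseudocounts. Every cluster had its highest pool after R-UUO below its lowest control pool, 25 of 25 (100%) at each time. The odds of a cell being at 0 were higher in 23 clusters (92%) at D28 and in 25 (100%) at D84. Clusters of a pool share the level of that pool, so these calls are not 25 independent results, and by exact permutation no cluster can be called at D84 because the smallest p there exceeds 0.05.

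**Figure D2:**
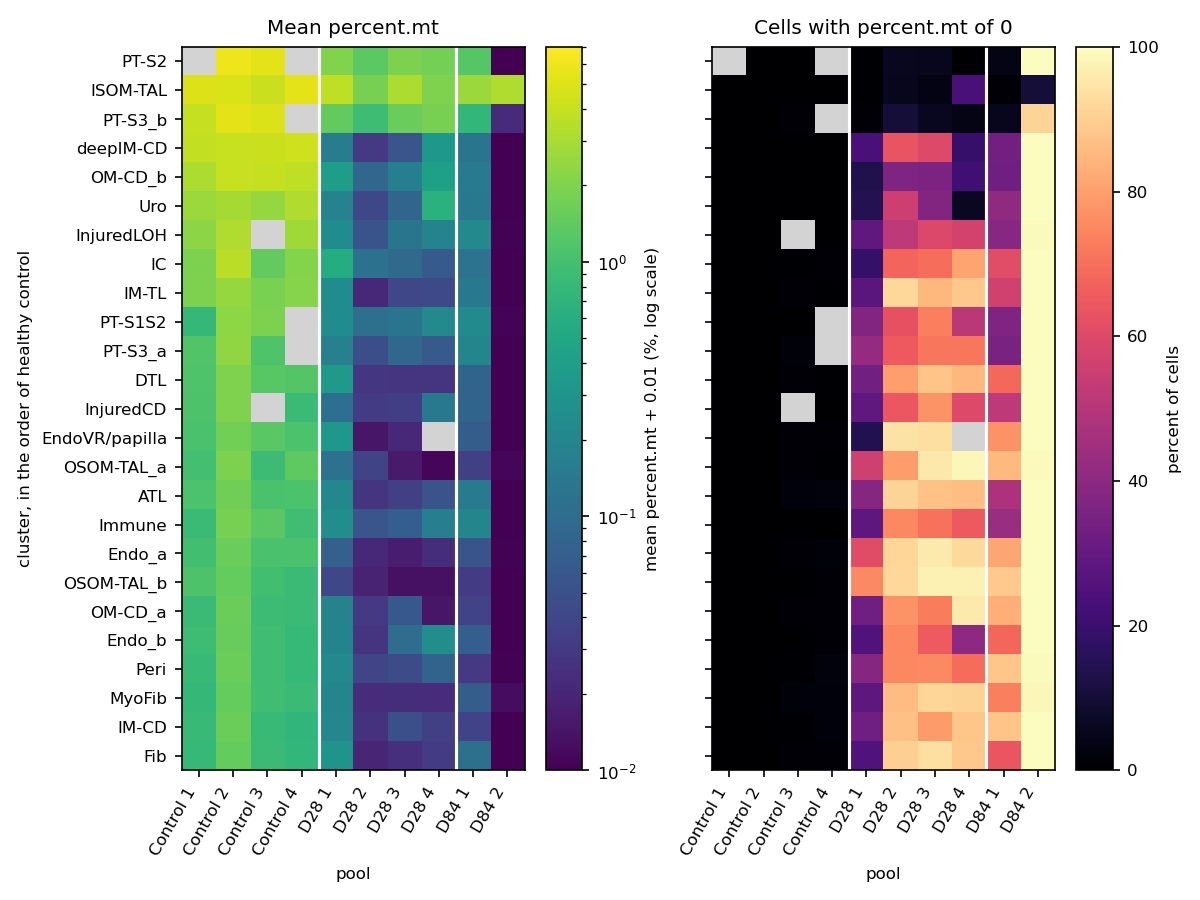
Mean percent.mt (log colour scale) and percent of cells at 0 for each of the 25 clusters (vertical) in each of the 10 pools (horizontal), with clusters in the control order. ISOM-TAL stays between 1.79% and 3.76% after R-UUO while most other clusters drop below 0.5%, and in D84 2 the cells of 17 clusters are all at 0.

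ISOM-TAL kept the most. Its mean percent.mt was 3.76%, 1.79%, 3.09% and 1.94% in D28 1 to 4 and 2.60% and 3.23% in D84 1 and 2, against 4.16% to 5.31% in control. Each value lies below every control pool and above every other cluster of its own pool, and the means are 55.0% of the control level at D28 and 60.6% at D84. The other 22 clusters outside the proximal PT-S2 and PT-S3_b kept 1.03% to 13.0% at D28 (median 6.40%), and the other 24 kept 0.970% to 10.9% at D84 (median 2.69%). These D28 means lean on D28 1. Without it ISOM-TAL kept 47.3% and the 22 clusters 0.466% to 11.5% (median 2.93%), and the share of 13 of the 22 was over 1.5 times lower. Without D28 4 the same held for 2 others, deepIM-CD and Uro, and without D28 2 or D28 3 for 0. The D84 means join unlike pools, since the 24 clusters kept 1.92% to 21.7% (median 5.38%) in D84 1 and 0% to 0.267% in D84 2.

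The log2 difference of ISOM-TAL was -0.92 at D28 (SE 0.787, limma adjusted p = 0.251, 95% interval -2.55 to 0.70) and -0.72 at D84 (SE 0.963, limma adjusted p = 0.460). That spread is shared with clusters that vary far more between pools. With its own spread the adjusted p was 0.0105 at D28 and 0.0534 at D84, and by exact permutation it was 0.0298 and 0.0877, so a moderate fall is seen at D28 when the cluster is judged by itself. The share of its cells at 0 rose from 0% to 0.581%, 5.79%, 3.60% and 23.1% in D28 1 to 4 and to 1.09% and 10.2% in D84 1 and 2. D28 4 stood out for its empty cells, which were the small ones: 60.8% of its ISOM-TAL cells of low UMI count, 8.86% of those of middle count and 0% of those of high count were at 0.

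In depth, ISOM-TAL cells had a median of 2409 to 4788 UMIs in control, 5030 to 6767 at D28, and 2968 and 2876 at D84. The mean number of mitochondrial UMIs in a cell was 219 to 589.5 in control, 154 to 347 at D28, and 111 and 166 at D84. The depth at D28 was thus above that of control while the mitochondrial count was in the lower part of its range or below it. Cells at or above 8%, close to the removal limit of 10%, made up 6.72% to 17.6% of the cluster in control, 1.74% to 6.97% at D28, and 0.362% and 5.84% at D84. How many cells of each condition were lost to that limit was not tested.

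Set against the median cluster of its own pool, ISOM-TAL lay 3.39 log2 units further up at D28 than in control (SE 0.668, limma adjusted p = 0.00608) and 4.56 further up at D84 (SE 0.818, limma adjusted p = 0.00264). At D28, 2 clusters were higher in this relative measure (8% of those tested) and 1 was lower (4%), and at D84 1 was higher (4%) and 0 were lower. The D28 difference ranged from 1.97 to 3.79 over the alternatives and the D84 difference from 2.54 to 6.35. Neither call held when each cluster had its own spread (limma adjusted p = 0.0504 at D28 and 0.0611 at D84). By exact permutation ISOM-TAL had the smallest p possible, 0.0286 at D28 and 0.0667 at D84, with no overlap with control. Such a p cannot pass the adjustment for 1 cluster alone (adjusted p = 0.119 and 0.238), so that test does not decide these calls. Without D84 2, in which most clusters were at 0, the D84 difference was 2.77, with 1 D84 pool left. The relative values of 8 clusters did not overlap between D28 and control (32% of 25), those of 7 (28%) between D84 and control, and those of 2 (8%) between D84 and D28. Within the D28 pools themselves 8 clusters lay above the median cluster (32% of 25) and 3 below (12%), by limma with the same adjustment. ISOM-TAL was 5.38 log2 units above it, PT-S2 4.84, PT-S3_b 4.51, OM-CD_b 1.86, PT-S1S2 1.44, IC 1.23, InjuredLOH 1.14 and Immune 0.91, while Endo_a, OSOM-TAL_a and OSOM-TAL_b lay -1.11, -1.02 and -1.67 from it. Within the D84 pools ISOM-TAL was the 1 cluster above (4%), by 6.55 (4.76 in D84 1 and 8.34 in D84 2), and 0 were below. In D84 2 the median cluster was itself at 0. No cluster of that pool could therefore lie below it, and the 8.34 depends on the pseudocount. With the mean over all cells of a pool as its level in place of the median cluster, 3 were above and 14 below at D28, and 1 above and 14 below at D84, so the balance of these calls depends on that choice.

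**Figure D3:**
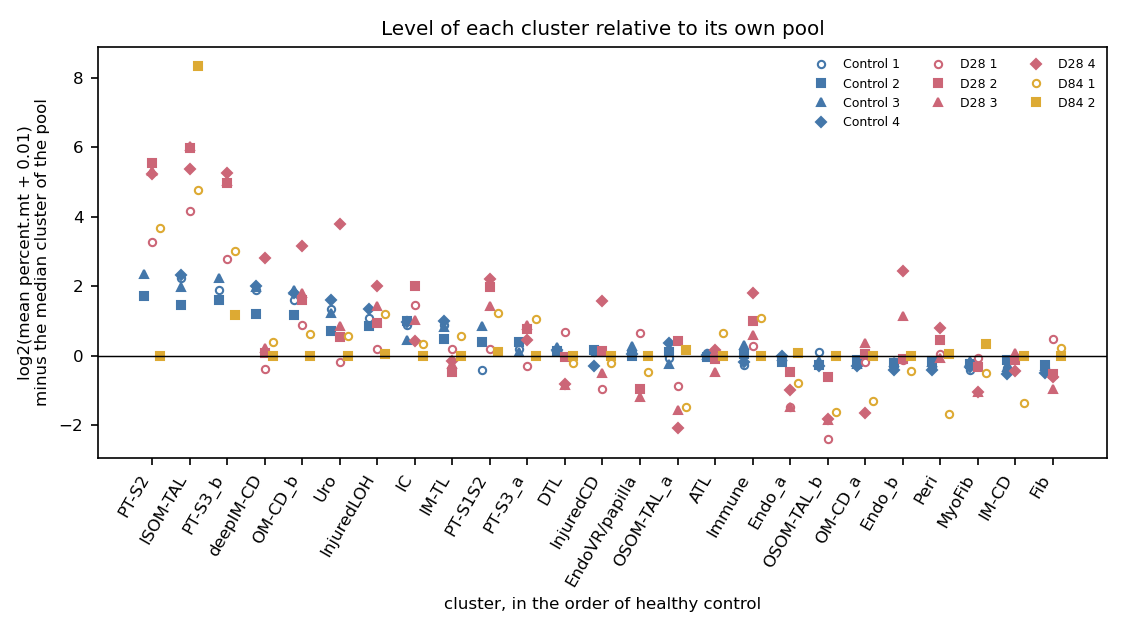
Mean percent.mt of each cluster relative to the median cluster of its pool, on the log2 scale, by condition; points are pools. ISOM-TAL moves up by 3.39 at D28 and 4.56 at D84 relative to control, PT-S3_b by 2.60 at D28, and OSOM-TAL_b moves down by 1.52 at D28.

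The proximal tubule clusters PT-S2 and PT-S3_b kept part of the signal at D28 and less of it at D84. PT-S2 had 2.01%, 1.32%, 1.90% and 1.76% in D28 1 to 4, then 1.22% and 0% in D84 1 and 2. PT-S3_b had 3.89%, 5.36% and 4.98% in Control 1 to 3, 1.43%, 0.897%, 1.55% and 1.80% at D28, and 0.758% and 0.0127% at D84. Each D28 pool was below each control pool and above each D84 pool in both clusters, which kept 31.0% and 29.95% of the control level at D28 and 10.9% and 8.13% at D84.

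For PT-S3_b the log2 difference was -1.76 at D28 (limma adjusted p = 0.110, by exact permutation 0.0298) and -5.16 at D84 (limma adjusted p = 4.4e-04). PT-S2 differed by -1.70 at D28 (limma adjusted p = 0.227, by exact permutation 0.0667) and by -5.67 at D84 (limma adjusted p = 0.0014). Its fall at D28 was called under 5 of 20 alternatives. Without D84 2 the D84 difference was -2.62 for PT-S3_b and -2.19 for PT-S2, and without D84 1 it was -7.70 and -9.14. PT-S2 has values in 2 control pools, sits at 0 in D84 2, and was not called at D84 with its own spread (adjusted p = 0.0523) or by exact permutation (adjusted p = 0.333). The D84 values rest on a wide gap between the pools, since 91.3% of PT-S3_b cells were at 0 in D84 2 and 5.56% in D84 1. Relative to its pool PT-S3_b rose by 2.60 at D28 (SE 0.636, limma adjusted p = 0.0205), a call lost without Control 1, Control 2 or D28 3, with the spread of the cluster alone, by exact permutation and under other settings. Under exact permutation 1 cluster alone cannot pass the adjustment. The remaining proximal clusters, PT-S1S2 and PT-S3_a, kept 9.90% and 5.36% at D28, and 6.47% and 6.17% at D84. PT-S1S2 had 0.231%, 0.102%, 0.117% and 0.206% in D28 1 to 4, well below PT-S2 and PT-S3_b of the same pools, so the retained signal was not shared by all of the proximal tubule.

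Clusters of the collecting duct that were rich in the set in health did not keep it. deepIM-CD, the duct segment that concentrates the urine at the papillary tip, had 0.150%, 0.0200%, 0.0456% and 0.321% in D28 1 to 4 and 0.117% and 0% in D84 1 and 2. From a control level of 4.09% it kept 3.27% at D28 (1.75% without D28 4) and 1.42% at D84, a log2 difference of -5.40 (SE 0.941, limma adjusted p = 3.8e-05) and -6.85 (SE 1.15, limma adjusted p = 3.2e-05). None of its control cells was at 0, against 23.1%, 63.4%, 59.8% and 18.9% at D28 and 33.9% and 100% at D84. The mean count fell from 375 to 531 mitochondrial UMIs per cell in control to between 0.874 and 12.7 at D28.

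The depth of deepIM-CD was 5538 to 6997 UMIs in control, 3060 to 6475 at D28, and 2507 and 1783 at D84 (medians), a difference far smaller than that of its mitochondrial UMIs. By the same bins of UMI count, its cells had 0.271%, 0.117% and 0.0611% in D28 1, 0.0326%, 0.0182% and 0.00951% in D28 2, 0.0613%, 0.0457% and 0.0297% in D28 3, and 0.318%, 0.373% and 0.272% in D28 4. The low bin was above the high bin in each D28 pool, as in Control 2 and unlike the other control pools. Compared with its pool, deepIM-CD lay -1.09 log2 units from its control position at D28 (limma adjusted p = 0.205) and -1.57 at D84 (limma adjusted p = 0.429), so a loss beyond that of the median cluster was not called.

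OM-CD_b followed the same course, with 0.374%, 0.0779%, 0.158% and 0.406% at D28 and 0.137% and 0% at D84, and kept 6.84% and 1.84%. Uro had 2.62%, 2.89%, 2.48% and 3.23% in control, 0.174%, 0.0318%, 0.0756% and 0.640% at D28, and 0.131% and 0% at D84, and kept 8.21% (3.35% without D28 4) and 2.34%. Both lay highest in D28 4 among the D28 pools, as deepIM-CD did, while most base clusters were highest in D28 1. The lower collecting duct cluster IM-CD had 0.196%, 0.0161%, 0.0399% and 0.0249% at D28 and 0.0276% and 0% at D84. It kept 6.95% and 1.39% of its control level, and OM-CD_a kept 5.98% and 1.36%. Without D28 1 these D28 shares were 2.71% and 2.39%, while deepIM-CD kept 3.15%, OM-CD_b 5.76% and Uro 8.87%.

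The deepest loss at D28 was in the outer stripe part of the same limb that kept the most in the inner stripe. OSOM-TAL_b had 1.11%, 1.47%, 0.943% and 0.861% in control, 0.0299%, 0.00874%, 0.00326% and 0.00331% at D28, and 0.0213% and 0% at D84. It kept 1.03% at D28, a log2 difference of -5.83 (limma adjusted p = 5.2e-06), and 0.970% at D84. Without D28 1 it kept 0.466% at D28. Relative to its pool it fell by 1.52 at D28 (SE 0.453, limma adjusted p = 0.0460), a call lost under 11 of 24 alternatives. OSOM-TAL_a kept 2.75% and 1.01%, and 0.926% at D28 without D28 1.

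Among the thin limbs, IM-TL kept 3.65% at D28 and 3.14% at D84, DTL 6.82% and 2.60%, and ATL 5.87% and 5.73%. Without D28 1 the D28 shares were 1.16%, 1.23% and 2.28%. DTL had 0.328%, 0.0179%, 0.0166% and 0.0168% in D28 1 to 4 and 0.0724% and 0% in D84 1 and 2. All had control levels between 1.23% and 2.09% and passed the limma test at both times. IM-TL had 0.232%, 0.0108%, 0.0301% and 0.0320% in D28 1 to 4 and 0.131% and 0% in D84 1 and 2. ATL had 0.205%, 0.0169%, 0.0246% and 0.0431% at D28 and 0.141% and 0% at D84. In each thin limb cluster D28 1 was the highest D28 pool, and its kept share at D28 lay close to or below the median of 6.40% over the 22 clusters outside ISOM-TAL, PT-S2 and PT-S3_b. Cells at 0 in IM-TL made up at most 0.864% in a control pool, 27.8% in D28 1 and 85.0% to 92.1% in D28 2 to 4.

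Stroma, vessels, immune cells and intercalated cells lost the signal too. Fib had 0.286%, 0.0101%, 0.0143% and 0.0209% in D28 1 to 4 and 0.102% and 0% in D84 1 and 2. MyoFib, the matrix-producing cells that expand in fibrosis, had 0.773%, 1.49%, 0.939% and 0.850% in control, 0.191%, 0.0127%, 0.0133% and 0.0128% at D28, and 0.0583% and 0.00257% at D84. In both, D28 1 stood more than an order of magnitude above the other D28 pools. Immune had 0.860%, 1.83%, 1.30% and 0.927% in control, 0.243%, 0.0468%, 0.0612% and 0.155% at D28, and 0.192% and 0% at D84. IC had 1.91%, 3.54%, 1.45% and 2.07% in control, 0.570%, 0.104%, 0.0873% and 0.0534% at D28, and 0.110% and 0% at D84. No value after R-UUO reached the control range in either. Kept shares at D28 ran from 2.09% in Endo_a to 13.0% in Endo_b, with 5.68% in MyoFib, 8.31% in Peri, 8.53% in Fib, 8.65% in EndoVR/papilla, 9.09% in IC and 10.3% in Immune. EndoVR/papilla had 0.320%, 0.00486% and 0.0109% in D28 1 to 3 and too few cells in D28 4 (8). Without D28 1 the D28 shares were 0.607% in EndoVR/papilla, 0.902% in Endo_a, 1.27% in MyoFib, 1.56% in Fib, 3.64% in IC, 4.38% in Peri, 7.13% in Immune and 11.5% in Endo_b. At D84 they ran from 0.976% in Peri to 7.82% in Immune, with 1.98% in Endo_a, 2.29% in EndoVR/papilla, 2.46% in IC, 2.95% in Endo_b, 3.01% in MyoFib and 5.28% in Fib. Peri had 0.208%, 0.0290%, 0.0355% and 0.0711% at D28 and 0.0198% and 0.000376% at D84, 1 of the 3 clusters whose D84 pools both lay below all D28 pools. The Endo_b values rest on 32, 77, 55 and 148 cells in D28 1 to 4.

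The clusters named for injury were rare in control and common after R-UUO. InjuredLOH held 25, 54, 9 and 29 cells in Control 1 to 4 and 780 to 2250 per D28 pool, and InjuredCD held 12, 17, 8 and 19 cells and then 337 to 808. In the control pools with 10 or more cells InjuredLOH had 2.20%, 3.22% and 2.71%, and InjuredCD had 1.11%, 1.98% and 0.867%. After R-UUO, InjuredLOH had 0.231%, 0.0445%, 0.119% and 0.179% at D28 and 0.210% and 0.000395% at D84. InjuredCD had 0.0982%, 0.0214%, 0.0239% and 0.131% at D28 and 0.0734% and 0% at D84. In the limma test both fell, by 4.33 (limma adjusted p = 4.4e-04) and 4.30 (limma adjusted p = 3.2e-04) on the log2 scale at D28, near the median of 4.30 that the 25 clusters fell by. InjuredLOH kept 5.28% at D28 and 3.88% at D84, and InjuredCD 5.20% and 2.78%.

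Whether injured cells differed from their uninjured counterparts was read within pools, over the 6 pools after R-UUO. The test covered 14 pairs, of which 10 set an injured cluster against another of its tubule and 4 compared stromal or endothelial clusters. Of the 14, 0 were called (exact sign-flip permutation test, two-sided, lowest Benjamini-Hochberg adjusted p = 0.146) with 5 to 6 pools each, and 3 had an unadjusted p of 0.03125, the smallest that 6 pools allow. At that p a single pair cannot pass the adjustment over 14 pairs, and pairs with 5 pools cannot go below 0.0625 in this test. The 0 calls therefore do not decide whether injured cells differed. InjuredLOH was above ATL by 0.92 log2 units (higher in 6 of 6 pools) and above OSOM-TAL_b by 2.35 (6 of 6), but below ISOM-TAL by 4.81 (higher in 0 of 6). In D84 2 ATL and OSOM-TAL_b were at 0 and InjuredLOH at 0.000395%, so that pool adds little to the count. In control the same differences were 1.08, 1.25 and -0.91, so the gap to ISOM-TAL was the one that widened most. InjuredCD was below deepIM-CD by 0.51 on average (lower in 4 of 6 pools, higher in 1 and tied with every cell at 0 in D84 2), against 1.70 below in the 3 control pools. These changes in the gaps were not tested.

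The mitochondrial UMIs that remained came from other cells than before. ISOM-TAL gave 5.95% to 26.7% of a control pool's mitochondrial UMIs, 33.8% to 66.7% of a D28 pool's, and 46.2% and 99.9% in D84 1 and 2, while its share of the cells was 2.24% to 6.99%, 1.53% to 5.29%, and 1.40% and 3.25%. deepIM-CD went the other way, from 33.6% to 68.1% of the mitochondrial UMIs in control to between 0.108% and 1.17% at D28 and 4.23% and 0% at D84, and its share of the cells was 7.63% to 14.95%, 0.578% to 5.70%, and 4.27% and 4.04%. The 4 proximal clusters together gave 0.132% to 9.94% in control, 31.7%, 53.2%, 24.9% and 7.93% at D28, and 4.78% and 0.0602% at D84. Their cell type held 85, 734, 161 and 23 cells in Control 1 to 4. It held 2965, 2969, 2145 and 459 in D28 1 to 4, and 712 and 1812 in D84 1 and 2. The paper reports that the outer medulla varied between dissected samples. The part of these cell numbers in the proximal share was not tested. InjuredLOH and InjuredCD together gave at most 0.465% in control, 2.39%, 1.52%, 3.09% and 28.4% in D28 1 to 4, and 23.1% and 0.00391% in D84 1 and 2. A large share was thus met in 1 of 4 pools at D28 and 1 of 2 at D84. Such shares depend on how many cells of each cluster were in the pool as well as on the level per cell.

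**Figure D4:**
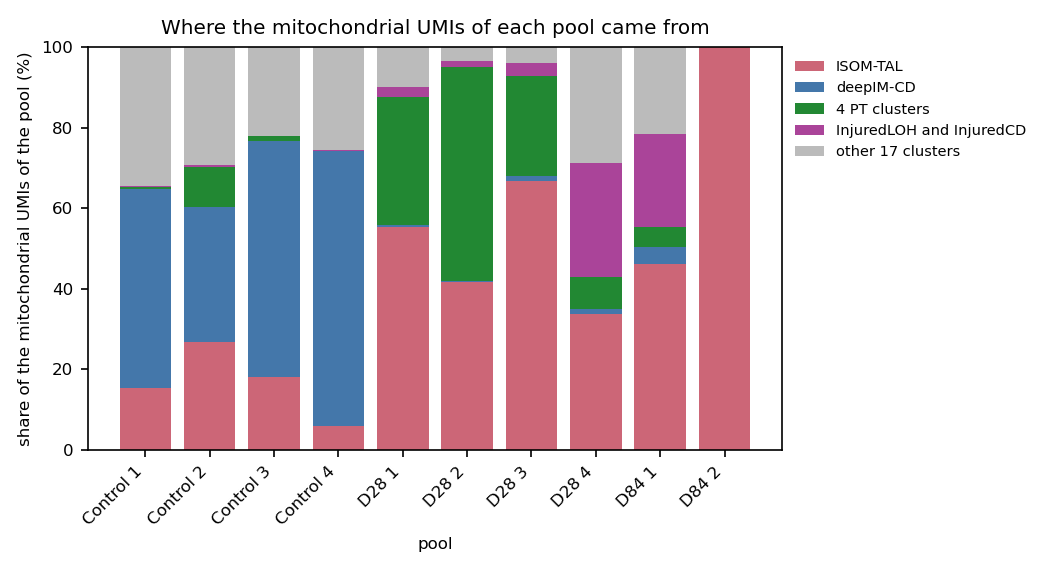
Share of each pool's mitochondrial UMIs that came from ISOM-TAL, deepIM-CD, the 4 proximal tubule clusters, the injured clusters and the other 17 clusters, in percent. ISOM-TAL rises from 5.95% to 26.7% in control to 33.8% to 66.7% at D28 and 99.9% in D84 2, and deepIM-CD falls from 33.6% to 68.1% to at most 1.17% at D28.

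The upper tail of single cells followed the means. Cells at or above 8% were found in 6 clusters at D28 (IC, ISOM-TAL, InjuredLOH, PT-S1S2, PT-S2 and PT-S3_b) and in ISOM-TAL alone at D84. At or above 1% lay 95.1% to 97.8% of ISOM-TAL cells in control, 51.7% to 82.6% at D28 and 71.1% to 77.2% at D84. For deepIM-CD the same share was 98.0% to 99.5% in control, 0% to 6.67% at D28 and 0% to 0.949% at D84. The fall in deepIM-CD was thus a shift of nearly all cells, and in ISOM-TAL most cells stayed above 1%.

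**Figure D5:**
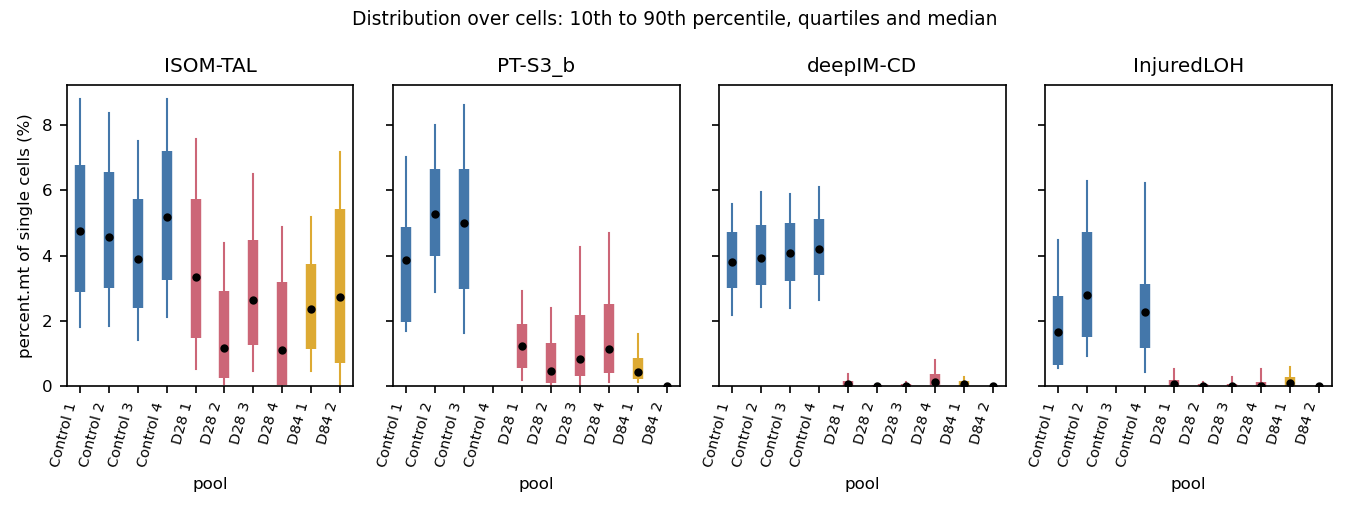
Distribution of percent.mt over the cells of selected clusters, by pool. In ISOM-TAL 51.7% to 82.6% of cells stay at or above 1% at D28, whereas in deepIM-CD at most 6.67% do.

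The clusters' order by mean percent.mt was largely shared among the control pools, with Spearman's rho of 0.83 to 0.94 over the clusters between each pool and the mean of the other control pools. Pools after R-UUO were set against the mean of all control pools. The D28 pools gave 0.43, 0.70, 0.64 and 0.71, and the D84 pools 0.74 and 0.11, the last with 17 clusters tied at 0. Without ISOM-TAL, PT-S2 and PT-S3_b the values were 0.17, 0.56, 0.48 and 0.57 at D28, and 0.63 and -0.14 at D84. In the control pools the same removal gave 0.79, 0.90, 0.87 and 0.93. The correlation with median UMI count was -0.02 to 0.69 at D28, and 0.56 and 0.16 at D84. All of these are descriptions over clusters that share a library and its depth.

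Between D84 and D28 the level over all cells differed by -0.89 log2 units (exact permutation p = 0.2), and no cluster was called in mean percent.mt (limma, 0 of 25, 3 at an unadjusted p under 0.05, lowest adjusted p = 0.101, and 0 by exact permutation). With cells of at least 1000 UMIs the level differed by 0.022 instead, so its direction depends on that filter. The median log2 difference over the 25 clusters was -1.27, but -2.67 without D84 1 and 0.39 without D84 2. Each of these leaves 1 D84 pool, so only the size is given. The odds of a cell being at 0 gave 0 calls as well (limma, 6 at an unadjusted p under 0.05, lowest adjusted p = 0.102). The pools of PT-S2, PT-S3_b and Peri did not overlap in mean percent.mt, 3 of 25 clusters (12%), all lower at D84, and those of IM-CD and Peri did not overlap in the share at 0, 2 of 25 (8%). The pools of D84 differed widely from each other, which limits this comparison.

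In D84 2 the signal was nearly gone outside ISOM-TAL. In 17 of its 25 clusters, together 17029 cells, every cell was at 0, and outside ISOM-TAL 88 of 22958 cells (0.383%) had any, with 120 mitochondrial UMIs in all. No cell of 7062 in the collecting duct type, which holds Uro, no intercalated cell of 723 and no immune cell of 435 had any, which allows shares of up to 0.0425%, 0.415% and 0.690% of cells with a UMI in the deposited counts (3 cells of the total, counting error only). This limits cells with a counted UMI, not cells that hold the transcripts, at the pool's median of 751 UMIs per cell. ISOM-TAL in the same pool was at 3.23%. In D84 1 the share of cells at 0 in the other clusters was 32.9% to 88.7% outside ISOM-TAL, PT-S2 and PT-S3_b, so the same labels covered pools with and without a residual signal. Within the other clusters of D28 the medians of the share at 0 were 29.2% in D28 1 and 76.4%, 76.6% and 81.0% in D28 2 to 4.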

How the data were processed

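Cells of mouse renal medulla were profiled by probe-based single-cell RNA sequencing in 10 pools. Per the submitters' processing notes and the methods, the authors counted UMIs with Cell Ranger 7.1 on mm10, removed cells with fewer than 300 genes or over 10% mitochondrial UMIs, then used SoupX for ambient RNA, scDblFinder for doublets and Seurat for clusters. The deposited table gave each cell's percent.mt (percent), gene counts, pool, cluster and a UMI total, fractional in Control 1 and taken as an estimated count. The members and lists were chosen with earlier results of these data known.

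Pools of separate animals were the replicates. Per pool and cluster, the mean percent.mt, log2(mean + 0.01), and the log2 odds of cells at 0 (0.5 cells added) were computed in Python 3.11.15 with pandas 2.3.3. A cluster with under 10 cells in a pool had no value. The relative measure subtracts the pool's median over the clusters that had a value in every pool. EndoVR/papilla, InjuredCD, InjuredLOH, PT-S1S2, PT-S2, PT-S3_a and PT-S3_b lacked a value in some pool and were left out of that median. Conditions were compared in 1 fit with limma 3.58.1 in R 4.3.3, Benjamini-Hochberg over 25 clusters, threshold 0.05, tested on simulated data. The simulated noise was independent between clusters and had the spread of the control pools. It does not cover levels shared within a pool or the wider spread after R-UUO. Single values were compared by exact permutation of pools (SciPy 1.17.1). By rule, every cluster was named with its levels, and all pool values were given for the 3 highest and 3 lowest clusters in control, the 3 with the largest called rise and fall relative to their pool, InjuredLOH and InjuredCD. deepIM-CD, OM-CD_b, Uro and other clusters shown by pool were chosen after their values were seen. Alternatives changed the pseudocount (0.001, 0.1), cell minimum (1, 30), cell filters (500 genes, 1000 UMIs), pool level, summing, test and pools, and some were added after seeing the data. Depth was a median of 751 to 3302 UMIs per cell. Intervals cover the spread of pools, and limits for counts of 0 cover counting error only.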

Additional observations from a re-analysis of the deposited data

Results flagged for a closer look

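Mean percent.mt of each cluster was examined in the 47 sets of 4 pools of a condition, and in 15 of them the highest or lowest pool was far removed, where about 2.35 would be met by chance (1 in 20). Of these, 7 concerned Control 2, which was high: ATL at 1.70%, DTL at 1.95%, Endo_a at 1.56%, Fib at 1.47%, IM-CD at 1.61%, OM-CD_a at 1.61% and Peri at 1.58%, against 0.732% to 1.26% in the other control pools of these clusters. The other 8 concerned D28 1, also high: ATL at 0.205%, DTL at 0.328%, Endo_a at 0.0650%, Fib at 0.286%, IC at 0.570%, IM-CD at 0.196%, IM-TL at 0.232% and MyoFib at 0.191%, against 0.00704% to 0.104% in D28 2 to 4. IC and IM-TL apart, all of these clusters lay below 1.5% in control, and ISOM-TAL and deepIM-CD had no such pool. Clusters of a pool share its level, so these are not 15 separate events, and the cause was not tested.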

How the results depend on the processing

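The labels give no pairing, but pools of different conditions carry the same numbers, and control and D28 pools of a number also share a probe barcode. Deviations from the condition means of same-numbered control and D28 pools correlated at 0.03, 0.24, -0.03 and 0.11 over clusters, and Control 2 and Control 3 correlated better with D28 1 and D28 4 than with their own number, so neither was taken to pair the pools. With the pool number as a replicate block, added after seeing the data, the relative measure gave 0 lower and 1 higher at D28, and with the probe barcode as replicate block 3 lower at D84 than at D28 and -0.28 for the log2 odds of PT-S2 cells at 0 at D28. The counts of falls in mean percent.mt were 22 at D28 and 24 at D84 under either block. The fall at D28 held for 18 to 25 clusters under every alternative, and of 1133 alternative values for single clusters in mean percent.mt 1091 kept direction and call, with 0 reversed. Any fit without D84 1 or D84 2 keeps 1 D84 pool. Its spread then comes from the other conditions alone, so counts at D84 from such fits decide nothing. Leaving out 1 pool at a time gave ranges of 0 to 13 clusters lower at D84 than at D28 (13 without D84 1) and 0 to 22 with higher odds of cells at 0 (22 without D84 1). For the relative measure it gave, at D28 against control, 0 to 4 lower and 1 to 5 higher, at D84 against control 0 to 1 lower and 0 to 1 higher (0 without D84 2), and between D84 and D28 0 to 2 lower and 0 to 1 higher. It gave 3 to 8 clusters above their pool in control, 2 to 6 below at D28, and 0 to 2 below and 1 to 3 above at D84. Without D28 1 and D84 2 together, a choice made after seeing the data, 6 clusters were higher at D84 than at D28 in mean percent.mt, and in the relative measure 5 were higher and 5 lower at D28, 1 was lower at D84 and 4 were lower at D84 than at D28, with 7 below their pool at D28 and 3 below and 4 above at D84. A pseudocount of 0.1 gave 2 clusters lower at D84 than at D28, and in the relative measure 1 higher and 2 lower at D28, 2 lower at D84 and 3 below their pool in control, and one of 0.001 gave 3 above in control and 2 above at D84. Taking all cells of the pool as its level gave 1 higher and 4 lower at D28, 0 above in control, 3 above and 14 below at D28, and 14 below at D84. Fitting only 2 conditions gave 3 relative falls at D28 and 2 at D84. Cells of at least 500 genes gave 3 relative falls at D28, 2 above their pool at D84 and 2 lower at D84 than at D28, as did a minimum of 1 cell per cluster, with 3, 2 and 2. Summing UMIs before dividing gave 3 relative falls at D28. Cells of at least 1000 UMIs gave 0, with 2 clusters of higher odds of cells at 0 at D84 than at D28, and turned the level of D84 against D28 from -0.89 to 0.022. Exact permutation gave 0 calls at D84 in either measure, where it cannot reach the threshold, and 0 relative calls at D28 or D84. At D28 its smallest p of 0.0286 cannot pass the adjustment for 1 cluster alone. The spread of each cluster alone, added later, gave 0 relative rises at D28, 0 at D84 and 2 above in control. The log2 odds of PT-S2 cells at 0 at D28 was 0.20, ran from -0.35 (without D28 2) to 0.84 with 1 pool left out (-0.33 without D28 3) and turned to -1.27 with a minimum of 1 cell, and the level of cells at 0 of D84 against D28, 1.95, ran from -0.20 (without D84 2) to 4.10 (without D84 1). The causes were not tested. Depth limits low values: at a median of 751 UMIs a cell at 0.1% holds less than 1 mitochondrial UMI, and 2 pools at D84 cannot reach 0.05 by permutation.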
